A study of Homo sapiens with 2 samples.

Results

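The miR-200 family loci are the genomic neighbourhoods of 5 microRNA genes, MIR200B, MIR200A and MIR429 on chromosome 1 and MIR200C and MIR141 on chromosome 12. They were examined in 2 libraries of ATAC-seq, an assay in which the Tn5 transposase inserts adapters into open chromatin. The members were the 5 genes by their GENCODE annotation on hg38, of 1877 annotated microRNA genes on chromosomes 1 to 22 and X, and every deposited peak within 50 kb of any of them. This rule took 14 of the 74757 peaks of the No gRNA library and 14 of the 75217 peaks of the All gRNA library.

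Both libraries came from SUM159, an established mesenchymal line of triple negative breast cancer, and both cell populations carried the lentiviral pLV-KRAB vector, from which dCas9-KRAB is made, the KRAB repressor domain joined to a Cas9 that no longer cuts DNA. The No gRNA cells had the vector with no guide RNA, and the All gRNA cells had in addition 4 guide RNAs against the promoter of ZEB1, a transcription factor that drives the epithelial-mesenchymal transition (EMT). The comparison asks where chromatin was open or closed after ZEB1 was targeted. Each group held 1 library of transduced cells of 1 line, so the conditions could not be tested against each other, p-values are not given, and the differences below are differences between these libraries.

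The miR-200 microRNAs are short RNAs, cut from hairpin transcripts, that pair through their seed with the 3′ UTRs of ZEB1 and ZEB2 and repress both. ZEB1 and ZEB2 are in turn zinc finger repressors that bind E-boxes, short motifs such as CAGGTG, in the promoters of the miR-200 genes. This double negative loop holds epithelial cells, which have abundant miR-200, apart from mesenchymal cells, in which the miR-200 loci are commonly silent.

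The family is defined by its sequences, so the mature 3p strands are shown with the seed, bases 2 to 8, in capitals. RefSeq (GRCh38.p14) gave a mature strand for all 5 genes. They fell into a group that shares the seed AAUACUG and a group that shares AACACUG.

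hsa-miR-200b-3p: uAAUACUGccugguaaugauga

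hsa-miR-200c-3p: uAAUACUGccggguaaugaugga

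hsa-miR-429: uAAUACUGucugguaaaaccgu

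hsa-miR-200a-3p: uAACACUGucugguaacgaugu

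hsa-miR-141-3p: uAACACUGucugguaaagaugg

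Each chromosome carries members of both seed groups. Over 22 aligned positions, miR-200b-3p and miR-200c-3p differed at 2, and miR-200a-3p and miR-141-3p also differed at 2, so the closest relatives lie on different chromosomes. miR-429 stood further off, with 6 differences from miR-200b-3p and 7 from miR-200c-3p. Strands of different seed groups differed at 4 or 5 positions.

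The seed matches were counted in the 3′ UTR of the canonical GENCODE transcript. The 3′ UTR of ZEB1, of 2540 bases, held 6 matches to AAUACUG and 3 to AACACUG. The 3′ UTR of ZEB2, of 5370 bases, held 5 and 4. Of 25 genes listed as miR-200 targets, 24 held a match to either seed, and JAG1, a Notch ligand, held none. Over 19483 canonical 3′ UTRs, with a median length of 1067 bases, 28.2% held a match to either seed. The listed 3′ UTRs ran from 247 bases at FHOD1 to 7882 bases at QKI, and the shares were not matched for length. Genes can also be listed as targets because of such matches, so the shares do not measure an enrichment. A match is a run of letters and not a measured site.

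The other sequences that bear on the loci are the promoters of the host transcripts and the peaks nearest to the hairpins. The RefSeq promoters, 250 bases before to 50 after the start on the plus strand of hg38, are printed with CAGGTG and CAGGTA in capitals on either strand (CACCTG and TACCTG on the printed one). MIR200BHG is the RefSeq transcript that spans the 3 hairpins of chromosome 1, and its promoter lies at chr1:1162627-1162926. MIR200CHG spans the 2 hairpins of chromosome 12, and its promoter lies at chr12:6962995-6963294.

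MIR200BHG promoter: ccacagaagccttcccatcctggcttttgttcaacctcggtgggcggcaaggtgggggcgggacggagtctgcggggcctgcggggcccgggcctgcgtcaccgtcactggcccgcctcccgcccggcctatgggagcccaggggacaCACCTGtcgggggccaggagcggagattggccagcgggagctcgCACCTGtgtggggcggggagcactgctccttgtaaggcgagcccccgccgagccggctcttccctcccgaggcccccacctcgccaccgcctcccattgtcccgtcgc

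MIR200CHG promoter: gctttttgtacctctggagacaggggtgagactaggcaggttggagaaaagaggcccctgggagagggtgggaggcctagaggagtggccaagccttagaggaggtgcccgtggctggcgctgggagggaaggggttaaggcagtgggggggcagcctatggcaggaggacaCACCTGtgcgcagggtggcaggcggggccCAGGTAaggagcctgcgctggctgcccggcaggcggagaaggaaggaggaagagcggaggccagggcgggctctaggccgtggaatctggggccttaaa

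The MIR200BHG promoter held 2 CAGGTG and 26 CpG at a GC content of 72.7%. The MIR200CHG promoter held 1 CAGGTG, 1 CAGGTA and 10 CpG at 65.7%. Of all RefSeq promoters of the same length, 20.6% held CAGGTG and 9.83% held CAGGTA on either strand. CAGCTG, which 17.9% held, was in neither.

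Upstream of MIR200B each library had a peak that the other lacked, and these are shown because the nearest open site of the chromosome 1 genes differs between the libraries through them. The All gRNA peak is printed whole, at chr1:1162989-1163220, and of the No gRNA peak the 201 bases centred on its summit are printed, at chr1:1157535-1157735. Both are on the plus strand of hg38.

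All gRNA peak upstream of MIR200B: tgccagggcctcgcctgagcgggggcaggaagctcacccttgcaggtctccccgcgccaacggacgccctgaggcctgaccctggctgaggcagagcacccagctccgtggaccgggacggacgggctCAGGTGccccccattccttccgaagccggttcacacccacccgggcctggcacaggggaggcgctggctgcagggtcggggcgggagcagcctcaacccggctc

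No gRNA peak upstream of MIR200B: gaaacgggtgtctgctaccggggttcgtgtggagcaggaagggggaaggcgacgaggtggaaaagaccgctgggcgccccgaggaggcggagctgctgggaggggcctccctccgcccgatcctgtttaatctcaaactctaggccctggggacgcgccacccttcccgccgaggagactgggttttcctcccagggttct

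The All gRNA sequence held 1 CAGGTG, in capitals, and 17 CpG at a GC content of 72.8%. The No gRNA sequence held no CAGGTG and no CAGGTA, with 15 CpG at 65.7%.

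The libraries differed in depth, and this touches every peak below. The files give no read totals, so the pileup at each summit, the number of extended read ends that cover it, was solved from the deposited fold enrichment and −log10 p. The All gRNA library had 0.743 times the depth of the No gRNA library, its median pileup was 14 against 19, and its peaks were narrower, with a median of 317 bp against 342 bp on chromosomes 1 to 22 and X. Over 48041 peaks with a single partner in the other list, the depth-scaled ratio of All gRNA to No gRNA pileups had a median of 0.928, a log2 value of −0.11. Intervals are of the exact type, at 95%, and cover counting error only. Both ends of a fragment can be counted, so the counts are not fully independent and the intervals can be too narrow.

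The targeted gene was examined first. At the ZEB1 start the No gRNA library had peaks at chr10:31318755-31319413 and chr10:31319469-31319752 with summit pileups of 25 and 27, and neither overlapped an All gRNA peak. Within 4000 bp of any annotated ZEB1 start, peaks covered 1143 bp in No gRNA and 546 bp in All gRNA. The label of the line was checked by promoter peaks at marker genes. Over all protein-coding genes 71.3% had one in both libraries. All 6 mesenchymal markers did, and 4 of 8 epithelial markers, with CLDN3 and ESRP1 at none in either. CDH1, E-cadherin, had a peak in No gRNA with a pileup of 7 and none in All gRNA. CLDN4, a claudin, had one of 12 and none. For scale, 2.92% of protein-coding genes were in this No gRNA only class. No gRNA peaks with a pileup of 12 lacked an All gRNA partner in 39.8% of cases. At KRT8, an epithelial keratin, a peak at chr12:52927296-52927825 had pileups of 66 and 16, a depth-scaled ratio of All gRNA to No gRNA of 0.326 (0.176 to 0.570). Among 5 distinct promoter pairs of the epithelial markers it was the 1 past 2-fold with an interval that excludes 1. Over the genome 3.27% of pairs were lower by that rule. Of the blood cell markers reported here, PTPRC and CD3E had no promoter peak in either library and LCP1 had one in both.

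No hairpin of the family lay under a peak in either library, and of all microRNA genes 5.70% in No gRNA and 5.38% in All gRNA overlapped one. The nearest peak was upstream of all 5 genes in both libraries. It was far from the chromosome 1 hairpins in No gRNA, nearer to them in All gRNA, and at almost the same distance from the chromosome 12 hairpins in both. On chromosome 1 this order turned when a −log10 q of at least 10 was required, with MIR200B then 9289 bp from the nearest No gRNA peak and 40950 bp from the nearest All gRNA peak. The No gRNA peak passed this limit narrowly, at 10.02, and the All gRNA peak, at 6.17, did not. A fixed limit also weighs more on the shallower All gRNA library, whose median −log10 q was 10.1 against 13.7.

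MIR200B (ENSG00000207730.3, chromosome 1, 1167104 to 1167198, plus strand) was 9289 bp from the nearest No gRNA peak and 3884 bp from the nearest All gRNA peak. MIR200A (ENSG00000207607.3, 1167863 to 1167952), which follows it, was at 10048 bp and 4643 bp. MIR429 (ENSG00000198976.1, 1169005 to 1169087) was at 11190 bp and 5785 bp. All 3 values rest on the peaks printed above, so they are 1 difference and not 3.

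MIR200C (ENSG00000207713.3, chromosome 12, 6963699 to 6963766, plus strand) was 1270 bp from the nearest No gRNA peak and 1278 bp from the nearest All gRNA peak. MIR141 (ENSG00000207708.1, 6964097 to 6964191) was at 1668 bp and 1676 bp. Both hairpins are intronic in the GENCODE transcript of MIR200CHG (ENSG00000257084.2), while no GENCODE gene spans the chromosome 1 hairpins.

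Among the 1877 microRNA genes the median gap was 8815 bp in No gRNA and 8881 bp in All gRNA. In No gRNA, 51.5% of all microRNA genes had a nearer peak than MIR200B, and in All gRNA 32.9% did. For MIR200C these shares were 17.3% and 16.4%. The chromosome 12 genes therefore stood among the microRNA genes with a near open site in both libraries, and the chromosome 1 genes near the middle of the distribution in No gRNA.

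A peak within 4000 bp of the hairpin start was present at 2 of the 5 members in No gRNA, MIR200C and MIR141, and at 3 in All gRNA, with MIR200B added. Over all microRNA genes such a peak was in All gRNA only at 4.05% and in No gRNA only at 3.73%. At MIR200B 117 bp of the peak lay within that distance, and its summit lay 4004 bp from the hairpin start, just outside. Hairpin starts are not transcription starts, and the RefSeq start of MIR200BHG lies 4227 bp before the MIR200B hairpin and that of MIR200CHG 454 bp before MIR200C. From the MIR200BHG start the nearest peak was 5062 bp away in No gRNA and 112 bp away in All gRNA, with the All gRNA summit 223 bp downstream of the start. From the MIR200CHG start it was 816 bp and 824 bp away. Counted from the host start, 2 members had a peak within 4000 bp in No gRNA and all 5 in All gRNA. The difference is the same single peak on chromosome 1. The host start was not a planned measure and was taken up once the peaks were known. No share over all microRNA genes was computed for it, and the 4.05% and 3.73% hold for hairpin starts. Peaks near transcript starts are common, and 71.3% of protein-coding genes had one in both libraries, with 2.56% in All gRNA alone.

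That All gRNA peak, at chr1:1162989-1163220, was a weak one. Its summit at 1163100 had a pileup of 8 (95% Poisson interval 3.45 to 15.8), a deposited fold enrichment of 6.06 and a −log10 q of 6.17, higher than 28.1% of the peaks in its list. Scaled to the depth of the No gRNA library the pileup is 10.8, and a pileup of 5 would have been called there over the same background. Of all All gRNA peaks 23.8% had no overlapping peak in No gRNA, of those with a pileup of at most 8 the share was 58.4%, and of the 5149 with a pileup of exactly 8 it was 49.6%. A peak of this height found in a single library was thus about as common as one found in both.

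The No gRNA peak upstream of it, at chr1:1157491-1157815, lay between genes, 9289 bp before MIR200B. Its pileup was 12 (6.20 to 21.0), its −log10 q 10.0 and its fold enrichment 7.87. At the All gRNA depth this pileup becomes 8.92, above the 4 needed for a call there. Among the 3070 No gRNA peaks of the same pileup 39.8% had no partner in All gRNA. Over the 50 kb upstream of MIR200B, 1 No gRNA peak and 2 All gRNA peaks were called in a single library.

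Upstream of MIR200C the libraries had open chromatin in the same place. The No gRNA peak at chr12:6961381-6962429 was 1049 bp wide, with a pileup of 40, a fold enrichment of 9.40 and a −log10 q of 26.5. It lay 1270 bp before MIR200C, in the stretch between the end of PTPN6 and the start of MIR200CHG. The All gRNA list had 2 peaks there, at chr12:6961277-6961691 with a pileup of 32 and a −log10 q of 21.8, and at chr12:6961927-6962421 with a pileup of 20 and a −log10 q of 9.74. The interval between them, which was part of the wide peak in No gRNA, was not called in All gRNA.

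Scaled for depth, the first All gRNA peak had 1.08 times the pileup of the No gRNA peak (0.655 to 1.76) and the second 0.673 times (0.373 to 1.18). Both intervals hold 1, so a difference in height was not detectable at this depth. The summits were not in the same place, with the No gRNA summit 472 bp downstream of that of the first All gRNA peak and 154 bp upstream of that of the second. Peaks within 4000 bp of MIR200C covered 1049 bp in No gRNA and 910 bp in All gRNA.

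E-boxes were dense around the chromosome 1 cluster. In the 9000 bases from 6000 before to 3000 after the MIR200B start there were 29 CAGGTG on either strand, against a median of 10 over all microRNA genes, and 98.9% of these genes had fewer. Of the 29, 1 lay in an All gRNA peak, at chr1:1163117-1163122 in the sequence printed above, 17 bp from the summit, and none lay in a No gRNA peak. CAGGTA occurred 3 times and CAGCTG, a form that other E-box factors also bind, 9 times, more than around 85.0% of the genes. The genes were not matched for base composition, so these counts and those around MIR200C do not measure an enrichment.

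Around MIR200C the same stretch held 15 CAGGTG, more than around 73.4% of the genes, and none lay in a peak of either library. CAGGTA occurred 6 times. CAGCTG occurred 14 times, more than around 97.4% of the genes, with 1 in the No gRNA peak. The chromosome 12 cluster was thus richer in CAGCTG and the chromosome 1 cluster in CAGGTG. Most of these matches lay outside called peaks, but peaks covered little of the 9000 bases. On chromosome 1 it was 232 bp, in All gRNA alone. On chromosome 12 it was a peak of 1049 bp in No gRNA and peaks of 415 bp and 495 bp in All gRNA. The counts inside peaks therefore do not show that the motifs avoid them.

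The wider windows differed more from each other than between the libraries. The chromosome 1 window, 1117104 to 1219087, held 5 No gRNA peaks over 1553 bp and 6 All gRNA peaks over 1414 bp, 1.52% and 1.39% of its length. The chromosome 12 window, 6913699 to 7014191, held 9 and 8 peaks over 5766 bp and 4439 bp, 5.74% and 4.42%. In each library the chromosome 12 window had more than 3 times the open length of the chromosome 1 window.

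The peaks of chromosome 12 were also taller. Their median pileup was 34 in No gRNA and 26.5 in All gRNA, against 13 and 8 on chromosome 1. In both libraries 6 of them had their summit within 1000 bp of a GENCODE start, and no chromosome 1 peak had. Over both windows the median width was 349.5 bp in No gRNA and 294.5 bp in All gRNA, and the median −log10 q 19.4 and 11.2. The microRNA genes of the genome had a median of 3 peaks within 50 kb in both libraries, so both clusters lay in richer surroundings than that.

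The edge of the rule mattered on chromosome 1. The nearest peak outside the left edge lay 409 bp beyond it in No gRNA and 483 bp in All gRNA, on the C1orf159 side, with −log10 q of 192 and 130, while the first peak inside lay 5100 bp and 5167 bp from the edge. The nearest outside on the right lay 12572 bp and 12662 bp beyond, at SDF4. On chromosome 12 the first peak inside on the left was 739 bp and 677 bp from the edge, at ENO2, and the nearest outside on the right was 4082 bp and 4336 bp beyond, at LPCAT3.

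Of the No gRNA peaks in the windows 4 of 14 (28.6%, exact binomial interval 8.39 to 58.1) had no All gRNA partner, against 24.7% of all No gRNA peaks. Of the All gRNA peaks 3 of 14 (21.4%, 4.66 to 50.8) had no No gRNA partner, against 23.8%. Neither share stood apart from that of the whole lists. On chromosome 1 these were 2 of 5 and 3 of 6 peaks, and on chromosome 12 they were 2 of 9 and 0 of 8.

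The strongest of them was a No gRNA peak in an intron of ATN1, a transcriptional corepressor, at chr12:6925450-6926148. It had a pileup of 24, a fold enrichment of 5.95 and a −log10 q of 11.4, and its pileup scaled to the All gRNA depth is 17.8, above the 9 needed for a call. Among the 1116 No gRNA peaks of that pileup 11.6% lacked a partner, so this was a less common case than the peaks near MIR200B. It held the single CAGGTG within 100 bp of a No gRNA summit in the windows.

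A No gRNA peak at chr1:1208584-1208788, on the upstream side of TNFRSF18, had a pileup of 13 and a −log10 q of 5.54, and lay close to a shared peak. The No gRNA peak at chr12:6996136-6996362, in introns of C1S and LPCAT3, had a pileup of 10 and a −log10 q of 7.55. The remaining All gRNA peaks fell below the −log10 q of 5 that set the named peaks and were described after their values were seen. They lay in an intron of LINC01342, at chr1:1142258-1142476, with a pileup of 7, and at chr1:1201119-1201318, with a pileup of 5 and a −log10 q of 2.16, higher than 0.239% of its list.

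A CAGGTG within 100 bp of the summit was found at 1 of the 14 No gRNA peaks and at 4 of the 14 All gRNA peaks, against 11.6% and 13.1% of all peaks of the libraries. The 4 were at chr1:1122271-1122528, the LINC01342 and MIR200BHG peaks and chr12:6937896-6938344 in ATN1. When the whole peak was searched instead, 4 peaks of each library held it. CAGGTA was found near no summit of the windows, against 5.22% of all No gRNA and 6.3% of all All gRNA peaks, and CAGCTG near 2 No gRNA and 1 All gRNA summits, against 12.4% and 12% of all peaks.

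The shared peaks of the windows had similar heights in the libraries. For the 9 with a single partner each, the depth-scaled All gRNA pileup was below that of No gRNA at 4, against 58.1% of such pairs in the genome, and the median ratio was 1.03. None was past 2-fold with an interval that excludes 1, against 3.27% of the pairs in the genome that were lower in All gRNA by that rule and 2.44% that were higher. The summed pileups, 303 in No gRNA and 217 in All gRNA, gave a ratio of 0.964 (0.806 to 1.15). In All gRNA 7 of the 9 peaks were narrower, against 60.7% of the pairs in the genome.

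The tallest of these peaks stood at the starts of C12orf57 and PHB2. The C12orf57 peak at chr12:6943618-6945010 had pileups of 64 and 42, a ratio of 0.883 (0.584 to 1.32), and widths of 1393 bp and 1379 bp. Its summits lay 625 bp apart, so this ratio compares different places within 1 peak. The peak between PHB2, which encodes a prohibitin of the mitochondrial inner membrane, and EMG1, which encodes a ribosomal RNA methyltransferase, at chr12:6970372-6971132, had pileups of 54 and 42 and a ratio of 1.05 (0.682 to 1.60), while its width was 761 bp in No gRNA and 496 bp in All gRNA. This is the nearest peak downstream of MIR141, 6181 bp and 6454 bp away, and its height at matched depth was almost the same.

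In ATN1 the peak at chr12:6937768-6938355 had a pileup of 37 in both libraries, a ratio of 1.35 (0.830 to 2.18). The ATN1 start peak at chr12:6924409-6924691 had pileups of 34 and 19, a ratio of 0.752 (0.405 to 1.36). A further ATN1 peak, at chr12:6927809-6928050, had 17 in both, a ratio of 1.35 (0.646 to 2.80). ATN1 peaks were thus placed on both sides of 1, with every interval across it.

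The peak at ENO2, which encodes the neuronal form of the glycolytic enzyme enolase, had pileups of 26 and 21, a ratio of 1.09 (0.581 to 2.01). On chromosome 1 the peak at chr1:1122204-1122576 had 21 and 16, a ratio of 1.03 (0.500 to 2.06), and that at chr1:1201436-1201759 had 12 and 8, a ratio of 0.897 (0.318 to 2.39), with an overlap of 77 bp and summits 178 bp apart. The lowest ratio of the windows was at chr1:1208085-1208410, upstream of TNFRSF18, which encodes a costimulatory receptor of T cells. Its pileups were 38 and 15, a ratio of 0.531 (0.271 to 0.988), so it was lower in All gRNA by less than 2-fold. Scaled by the median of all pairs the ratio was 0.572 (0.292 to 1.07), an interval that holds 1.

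**Figure D1:**
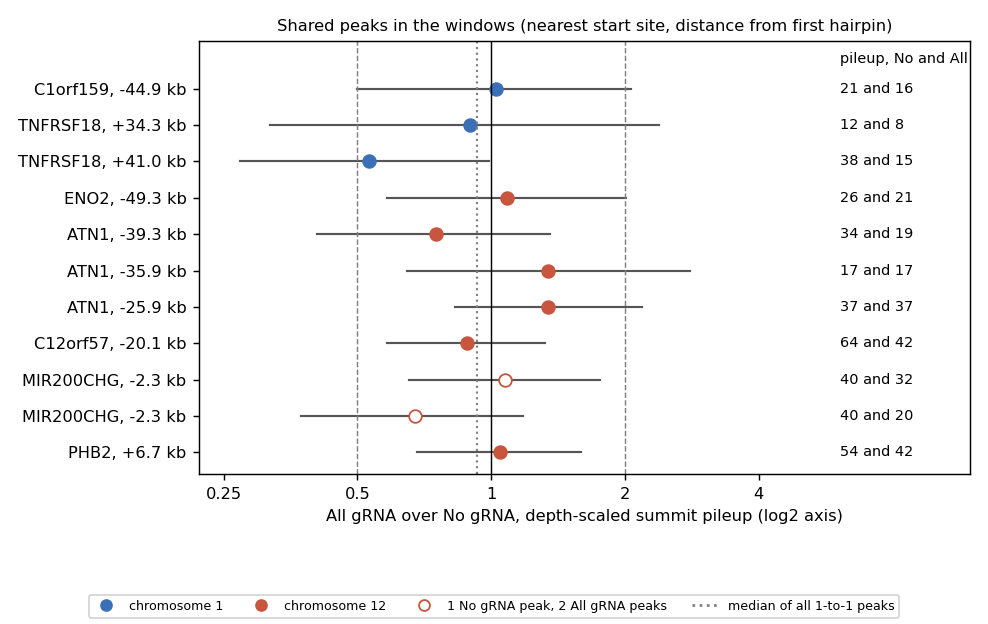
Depth-scaled ratio of All gRNA to No gRNA summit pileup (log2 axis) at the shared peaks of both windows, named by the nearest start site and the distance from the first hairpin, with 95% counting intervals as lines and the pileups at the right. Open points are the MIR200C upstream peak against each of its 2 All gRNA partners, the dotted line is the median of all pairs at 0.928 and the dashed lines mark 2-fold. One interval, at TNFRSF18, ends below 1, at 0.988.

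Of the 22 GENCODE genes that overlap the windows beside the members, 17 had a promoter peak within 4000 bp of a start in both libraries, 5 had none in either and none had one in a single library, against 2.92% of protein-coding genes that had one in the No gRNA library alone and 2.56% that had one in the All gRNA library alone. The 5 without a peak were all on chromosome 1. They were the transcript ENSG00000272141, which begins 270 bp after MIR429, LINC01342, TTLL10-AS1, TTLL10 and TNFRSF4. All 15 neighbours on chromosome 12 had one, though several of them share a peak.

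The covered stretch of promoter was shorter in All gRNA at 16 of the 22, longer at 1 and equal at 5, the 5 without a peak. Of all protein-coding genes 52.2% were shorter and 24.4% longer, but these shares include genes with no peak. Of the 15341 protein-coding genes with a peak, 10420 were shorter and 4865 longer. Over the 17 with a peak the median difference was −236 bp, against −71 bp over all protein-coding genes with a peak. The 17 are not separate observations, and some of them are not protein-coding. PHB2, SCARNA12, EMG1 and ENSG00000290146 share 1 peak, and C12orf57, ENSG00000272173 and RNU7-1 share another. MIR200CHG and ENSG00000271969 share the peaks upstream of MIR200C. The counts and the median therefore repeat a few peaks. ATN1 had 1812 bp in No gRNA and 1003 bp in All gRNA. PTPN6, which encodes a tyrosine phosphatase of blood cells and ends 2383 bp before MIR200C, had 2442 bp and 2289 bp. These are the C12orf57 peak and the peaks upstream of MIR200C, both described above, and PTPN6 had no promoter peak of its own. PHB2 and EMG1, which share their peak, had 761 bp and 496 bp. ENO2 had 1347 bp and 877 bp. The lower depth of All gRNA moves with these lengths, and its part in them was not tested.

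The longer one was C1S, a serine protease of the complement cascade, with 530 bp and 554 bp, and it was also the neighbour whose promoter peak differed most in height. This peak, at chr12:7060349-7060878, lies outside the 50 kb window, in an exon 7 bp from a C1S start. Its pileups were 48 and 14, a ratio of 0.392 (0.200 to 0.724), and scaled by the median of all pairs 0.423 (0.215 to 0.780). Among the 13 distinct promoter pairs of the neighbours it was the 1 past 2-fold, beside the 3.27% lower by that rule in the genome.

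The 2 transcription factors at the other end of the loop were covered less in All gRNA, as were 10420 of the 15341 protein-coding genes with a peak. ZEB1 is also the gene that the guides target. The part of the lower All gRNA depth in these lengths was not tested. ZEB2 had 10 promoter peaks over 3525 bp in No gRNA and 6 over 1516 bp in All gRNA. Of the 10, 4 had no partner, beside 24.7% of all No gRNA peaks, among them the peak at chr2:144517618-144517882, 12 bp from a ZEB2 start, with a pileup of 30 and a −log10 q of 18.9. The 6 shared peaks had ratios of 0.712 to 0.972, and every interval held 1. At ZEB1 the shared peak at chr10:31382117-31382316 had pileups of 8 and 9, and an All gRNA peak at chr10:31353678-31354009, in an intron, had a pileup of 10 and no partner.

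Of the 25 listed miR-200 targets, 24 had a promoter peak in both libraries, 1 in No gRNA alone and none in All gRNA alone, beside 71.3%, 2.92% and 2.56% of all protein-coding genes. Covered length was shorter in All gRNA at 16, longer at 8 and equal at 1, and the median difference was −75 bp, close to the −71 bp of all protein-coding genes with a peak. The target with a peak in No gRNA alone was KDR, a receptor for vascular endothelial growth factor, with a No gRNA peak at chr4:55125355-55125853 of pileup 15 and −log10 q 13.3.

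Of 53 promoter pairs of the targets, 1 was higher in All gRNA past 2-fold and 1 lower, near the shares of 2.44% and 3.27% over the genome. The higher one lay in an intron of NTRK2, a neurotrophin receptor, at chr9:84970588-84970787, with pileups of 8 and 20 and a ratio of 3.36 (1.42 to 8.83). The lower one lay in an intron of ETS1, a transcription factor, at chr11:128467641-128468111, with 33 and 12 and a ratio of 0.489 (0.230 to 0.972), which became 0.527 (0.248 to 1.05) when scaled by the median of all pairs. The other targets included FN1, fibronectin, with 2187 bp and 1712 bp of covered promoter, QKI, an RNA-binding protein, with 2912 bp and 2430 bp, and BMI1, a Polycomb protein, with 902 bp in both.

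Of 14 transcription factors and signalling genes listed as regulators of the miR-200 loci, ZEB1 and ZEB2 included, 13 had a promoter peak in both libraries, while of all protein-coding genes 71.3% had one in both and 23.2% in neither. The other, GRHL2, an epithelial activator of MIR200 genes, had none in either. Covered length was shorter in All gRNA at 11, longer at 2 and equal at 1, the gene without a peak. Of the 15341 protein-coding genes with a peak, 10420 were shorter. The median difference over the 13 with a peak was −269 bp, against −71 bp. The genes were not matched for number of starts or covered length, which reached 4094 bp at SMAD3 in No gRNA. ZEB1, the target of the guides, is among the 13, and the part of the lower All gRNA depth was not tested. Of 28 promoter pairs 1 was past 2-fold, beside the 2.44% higher over the genome. It was higher in All gRNA, in an intron of SMAD3, a transducer of TGF-β signals, at chr15:67175170-67175381, with pileups of 15 and 32 and a ratio of 2.87 (1.51 to 5.70).

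Other microRNA genes of the transition gave a scale for the members. Of 22 listed, 7 had a peak within 4000 bp of the hairpin in both libraries, 3 in All gRNA alone, none in No gRNA alone and 12 in neither. Over all microRNA genes the shares were 29.4% in both, 4.05% in All gRNA alone, 3.73% in No gRNA alone and 62.9% in neither. The 3 were MIR221 and MIR222, which share the peak at chrX:45743241-45743440, and MIR145. Both of these peaks had a pileup of 5 and a −log10 q of 2.75, below the 8 and 6.17 of the All gRNA peak near MIR200B. MIR205, which also targets ZEB1, had a peak in both libraries, with top pileups of 25 and 14, and MIR203A, MIR34A, MIR34B, MIR34C and MIR375 had none in either. None of the 10 pairs at these genes was past 2-fold.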

How the data were processed

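ATAC-seq peak lists of 2 SUM159 libraries were used. Per the labels and methods, the authors used fastp for trimming and bowtie2 for mapping to hg38, discarded mitochondrial, excluded-region and duplicate reads, and called peaks per library with MACS2 without a control. Tool versions are not given in the sources used here. The stated extension was 150 bp with a shift of 75 bp upstream, while the shortest deposited peak was 200 bp. The deposited values are a fold enrichment (a ratio), a −log10 p, a −log10 q and a score, all as the authors' caller wrote them. The deposited score was not used.

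The summit pileup and background were solved for each peak from the fold, (pileup + 1) / (background + 1), and the Poisson −log10 p, with Python 3.11.15, pandas 2.3.3, scipy 1.17.1 and pysam 0.24.0. Whole-number pileups gave back the deposited −log10 p of 100% of the peaks to a relative error of at most 6.81e-06, and the procedure was tested on simulated data. The lowest background gave the depth ratio. Peaks that overlap by at least 1 bp were taken as shared. Ratios carry Clopper-Pearson intervals, and a pair was counted past 2-fold where the interval excluded 1. The pileup needed for a call in the other library is the lowest whose Poisson −log10 p, over the same background at that depth, reaches the lowest in its list. GENCODE release 44 gave genes and starts, RefSeq the sequences. GENCODE or RefSeq positions are on hg38, as the peaks are.

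Named were all members with their nearest peaks, window peaks in 1 list with −log10 q of at least 5, the 5 strongest shared peaks of each window, the nearest neighbours and, of the lists, ZEB1, ZEB2 and genes with a promoter peak in 1 list or past 2-fold. The members and lists were chosen with earlier results of these data known. Alternatives were other overlap rules, −log10 q minimums, windows, promoter lengths and scalings.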

Additional observations from a re-analysis of the deposited data

How the results depend on the processing

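No paired analysis was possible because there was 1 library in each group, and no test could be run. Of the alternative values 70 stayed within their margin and 31 moved. These labels did not record a change of direction, and the order of the MIR200B gaps did turn, as given below. By construction, other windows change the counts. Within 20 kb there were 4 No gRNA peaks over 3528 bp, 1 without a partner, and 5 All gRNA peaks over 3017 bp, 1 without a partner. Within 100 kb there were 28 over 15712 bp, 7 without a partner, and 26 over 11981 bp. With a −log10 q of at least 10, 8 All gRNA peaks were left. Peaks in 1 library numbered 7 (No gRNA) and 7 (All gRNA) when summits within 150 bp defined shared, 6 in All gRNA when an overlap of 50% of both did, and 2 in No gRNA when peaks up to 1000 bp apart did. Among All gRNA peaks with −log10 q of at least 5, 1 was in 1 library, and with at least 10, 0 were, against 2 in No gRNA.

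With promoters of 1000 bp, 10 neighbours were shorter in All gRNA, and of the other EMT microRNA genes 0 had a peak in All gRNA only and 1 was shorter. With 10000 bp, 2 neighbours had a peak in All gRNA only, 0 targets had one in No gRNA only and 10 EMT microRNA genes were shorter. CAGGTG anywhere in the peak was found at 4 No gRNA peaks. Measured from the RefSeq host start, an alternative chosen after seeing the data, 5 members had a promoter peak in All gRNA. The gap to the nearest All gRNA peak with −log10 q of at least 10, also chosen after seeing the data, was 40950 bp for MIR200B, against 9289 bp in No gRNA, which turns their order, and 2008 bp for MIR200C, so the nearer site at MIR200B rests on a peak below that limit. A pileup of 8 limits what can be said of its height. The No gRNA peak on which the turned order rests was just above the same limit, at 10.02.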
